A study of Homo sapiens with 8 samples.

Results

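Baseline translational efficiency (TE) was described in control WM902B melanoma cells, from the authors' deposited log2 TE of the scrambled hairpin condition, for all 4616 of the 4616 genes in the table. WM902B is a human cell line from a primary melanoma with the BRAFV600E mutation, used at passage 18. Ribosome footprints and mRNA were sequenced from cells that expressed shSCR, a scrambled hairpin, or shTINCR, which targets TINCR, with 2 biological replicates of each library kind and condition, 8 libraries in all. Only the shSCR cells, from 4 libraries, are described here. They carried a hairpin that is meant to target no transcript, so they are a vector control rather than untouched cells. As in the other cells of the study, 100 µg/ml cycloheximide for 5 min arrested their ribosomes before lysis. The cells are 1 line with 1 oncogenic background.

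The deposited column holds 1 value for each gene, in which the authors merged the 2 replicates. Its values carry no spread between replicates, and no library depth is known, so every comparison of genes below is a description without a test. A log2 TE of 0 lies close to the median gene (0.01), so each value states how densely an mRNA was covered with footprints relative to the typical mRNA and not an absolute rate. Which region was counted is not given in the sources here. Gene length cancels in TE only if footprints and mRNA were counted over the same region.

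A ribosome that is digested around leaves a short protected fragment, and the number of such fragments on an mRNA reflects both how many ribosomes load onto it and how fast they move. Most loading is set at initiation, where the cap-binding complex recruits the small ribosomal subunit and scans for a start codon. Known elements that hold initiation back include upstream reading frames, iron-responsive elements and, under low mTORC1 activity, the terminal oligopyrimidine (TOP) tract with which the mRNAs of ribosomal proteins begin.

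The rows of the table matched a melanocytic cell. Of 12 melanocyte and melanoma markers 10 had a row, among them MITF, SOX10, TYR, DCT, PMEL and MLANA, while PAX3 and TYRP1 had none. Keratinocyte markers had a row for 1 of 8 genes (PERP), with KRT5, KRT14 and TP63 without one. Fibroblast markers had 1 of 8 (COL1A2), endothelial markers 1 of 4 (KDR) and immune markers 1 of 6 (CD68). Presence of a row was all that could be read, since the column holds no expression level. In a bulk library, one value shared by all cells and a mixture of cells with different values cannot be told apart.

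The start sites of TOP mRNAs are shown, since nearly all ribosomal proteins belong to this class. The log2 TE of the 79 measured ran from -1.22 to 3.70, with 1 at or below -1 and 8 at or above 1. Each sequence runs from 5 bases before the annotated transcription start to the 25 transcribed bases after it, in RefSeq on GRCh38.p14, and capitals mark the unbroken pyrimidine run that begins with a C at the start base. The 3 ribosomal protein genes with this run and the lowest log2 TE come first, then the 3 with the highest, then 2 elongation factors.
RPS10: tccttCCTTTCCagccccggtaccggaccc
RPSA: cctgtCTTTTCCgtgctacctgcagagggg
RPL39: agcttCCCTCCTCTTCCTTTCTCCgccatc
RPLP2: gccttCCTTTTCCTCCCTgtcgccaccgag
RPL13A: tcctcCTTTTCCaagcggctgccgaagatg
RPL28: ccttcCTCTTTCCgtctcaggtcgccgctg
EEF2: gcgttCTCTTCCgccgtcgtcgccgccatc
EEF1A1: acgttCTTTTTCgcaacgggtttgccgcca
The windows lie at chr6:34426045-34426074 on the minus strand (RPS10), chr3:39406715-39406744 on the plus strand (RPSA), chrX:119791606-119791635 on the minus strand (RPL39), chr11:809962-809991 on the plus strand (RPLP2) and chr19:49487603-49487632 on the plus strand (RPL13A). That of RPL28 lies at chr19:55385927-55385956 on the plus strand, that of EEF2 at chr19:3985439-3985468 on the minus strand and that of EEF1A1 at chr6:73521008-73521037 on the minus strand. RPSA and RPL13A have a run of the same length, 7 bases, at a log2 TE of -0.95 and 2.45. RPL39 has the longest run shown, 19 bases, at -0.92.

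The ferritin light chain gene FTL is shown for its iron-responsive element, a hairpin near the 5' end that iron regulatory proteins bind when iron is scarce. Capitals mark the loop CAGTGN at transcribed base 39.
FTL: ctcttgcttcaaCAGTGTttggac
This window, chr19:48965335-48965358 on the plus strand of GRCh38.p14, lies in the transcribed 5' leader, and the log2 TE of FTL was -2.55. The loop letters alone are common. They occurred on the transcribed strand, in the 50 transcribed bases of the table of start sites, in 181 of the 3857 genes with an entry (4.69%, against 6.36% of all 35116 entries). The median log2 TE of genes with and without them was -0.03 and 0.02.

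TE spread widely across the 4616 genes. The quartiles lay at -0.60 and 0.53, a 2.18-fold span, and the SD across genes was 0.899. From percentile 10 to percentile 90 the span was 4.55-fold, and from percentile 1 to percentile 99 it was 22.1-fold. The extremes, UHMK1 at -3.92 and S100A11 at 4.16, were 271-fold apart. A log2 TE of at most -1, called low below, was reached by 647 genes (14%), and one of at least 1, called high, by 446 genes (9.66%). Beyond a log2 TE of 2 in either direction the low side held more genes, with 103 at or below -2 against 53 at or above 2, whereas 13 lay at or below -3 and 10 at or above 3.

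**Figure D1:**
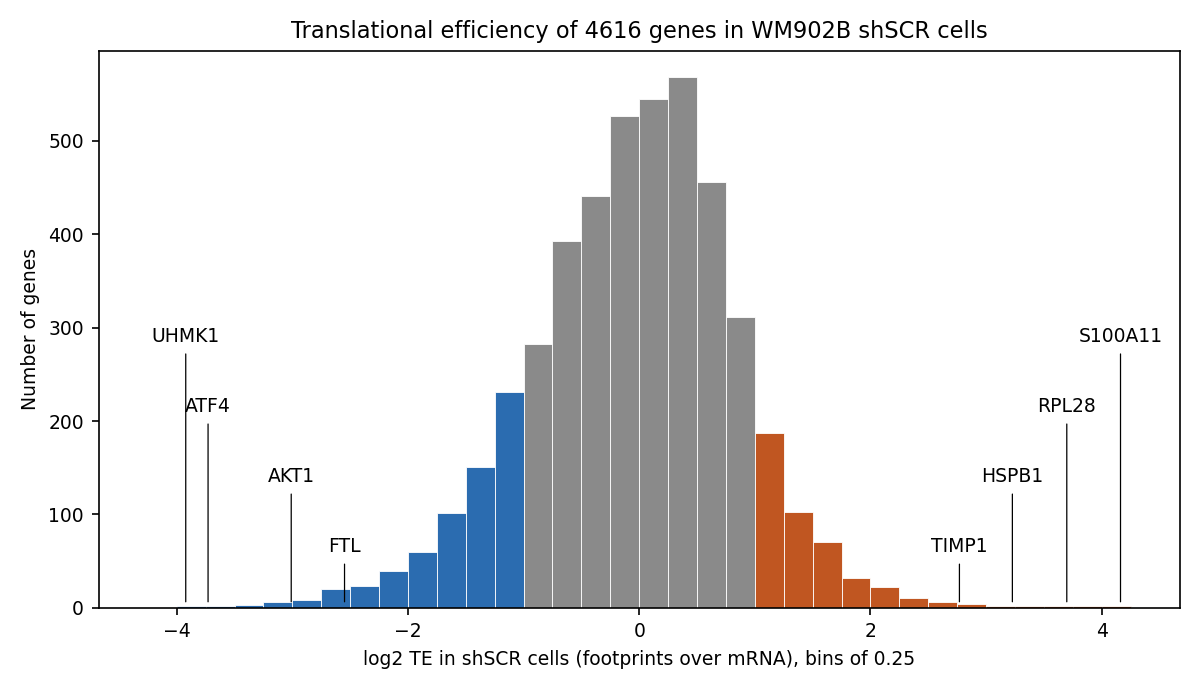
Histogram of log2 TE (x axis, bins of 0.25) against the number of genes (y axis) for 4616 genes in shSCR cells, with genes at or below -1 in blue and at or above 1 in orange. The 647 low genes form a broader shoulder than the 446 high genes, and 8 genes of the outer ends are marked.

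At the low end stood regulators and membrane proteins. UHMK1, a serine/threonine kinase, had the lowest value, a linear TE of 0.0660. The tetraspan membrane protein LHFPL2 followed at -3.80. ATF4, which switches on genes in the integrated stress response, was the gene with the third lowest value, at -3.73. STARD7, a lipid carrier of mitochondria, had -3.57. The apolipoprotein L-like gene APOLD1 had -3.45 and the antizyme inhibitor AZIN1 -3.41. Of these 6 mRNAs, ATF4 and AZIN1 are known for control by upstream reading frames.

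Other genes of the 25 lowest had varied roles. The kinase IRAK1, which relays interleukin-1 and Toll-like receptor signals, lay at -3.29, and the channel kinase TRPM7 at -3.09. AKT1, the central kinase of growth factor signalling, lay at -3.01, at rank 13 from the bottom. NF2, the tumour suppressor merlin, had -2.97, the growth factor TGFA -2.93 and TEAD1, the DNA-binding partner of YAP, -2.90. The exchange factor ARHGEF12 had -2.97 and GAS7 -2.98, and the RAB exchange factor DENND5A -2.75.

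Membrane and organelle genes supplied VMA21, an assembly factor of the V-ATPase, at -3.08, the ER lectin MLEC at -3.02, TMEM33 at -2.95 and the transporter-like SLC35F5 at -3.04. IBTK, an inhibitor of Bruton kinase whose mRNA carries upstream reading frames, had -3.02. Nuclear factors among the 25 were the nucleoporin NUP50 (-2.78), the transcription factor KLF9 (-2.76), the haem-sensing repressor BACH1 (-2.75), the SUMO protease SENP5 (-2.73) and ZNF106 (-2.72).

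At the high end stood calcium-binding, secreted and RNA-binding proteins and single subunits of large complexes. S100A11, a small calcium-binding protein, had a linear TE of 17.9, and MIA, a protein secreted by melanoma cells, one of 16.7 (log2 4.07). ATP6V0C, which forms the proton-carrying ring of the V-ATPase, reached 3.87 and the small redox-fold protein SH3BGRL3 3.79. RPL28, of the large ribosomal subunit, reached 3.70. The RNA-binding protein HNRNPA1 (3.67) came next.

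Further members were the imprinted growth regulator PHLDA2 (3.40), the small heat shock protein HSPB1 (3.23) and the disulfide isomerase TXNDC5 (3.15). CYB5R3, a reductase of cytochrome b5, had 2.89. Secreted proteins were TIMP1, an inhibitor of metalloproteinases (2.77), the matrix protein ECM1 (2.76) and the lipid transfer protein PLTP (2.56). Thymidylate synthase TYMS, which makes a DNA precursor and is known to bind its own mRNA, had 2.75. ATP synthase supplied 2 of the 25, ATP5PF (2.60) and ATP5F1E (2.57).

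Further genes of the 25 were HNRNPD (2.64), the antiviral membrane protein IFITM3 (2.57), the focal adhesion protein ZYX (2.53), RPL13A (2.45), the small GTPase ARL2 (2.41), the actin-binding protein PFN1 (2.39), the lysosomal glycoprotein CD68 (2.37) and the histone chaperone ANP32B (2.37).

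Named pseudogenes were more common at the high end of this ranking. Of the 25 highest genes 15 have at least 1 named pseudogene in the reference table, against 4 of the 25 lowest and 25.3% of all genes. HNRNPA1 has 75, RPL13A 26, and S100A11 and PFN1 10 each. Among high genes the share was 31.2%, among low genes 23% and among the others 24.9%. How reads that fit several places were treated is not stated in the sources used here, so the values of such genes are uncertain, and the part of pseudogenes in the ranking was not tested. Without all genes that have a named pseudogene, 498 low genes (14.4%) and 307 high genes (8.90%) were left.

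Families were ranked by the median log2 TE of their measured members. Of 85 families, 84 had at least 5 measured members. Medians ran from -1.26 to 1.41, with 9 families at or below -0.5 and 13 at or above 0.5. Among the 84 families, 48 had more members above 0 than below and 34 had the opposite. Counts of low and high members below are to be read beside 14% low and 9.66% high among all genes. The share of low members was larger than that of all genes in 32 families, and the share of high members in 41. The interquartile range was below the 1.13 of all genes in 60 of the 84 families and above it in 24.

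**Figure D2:**
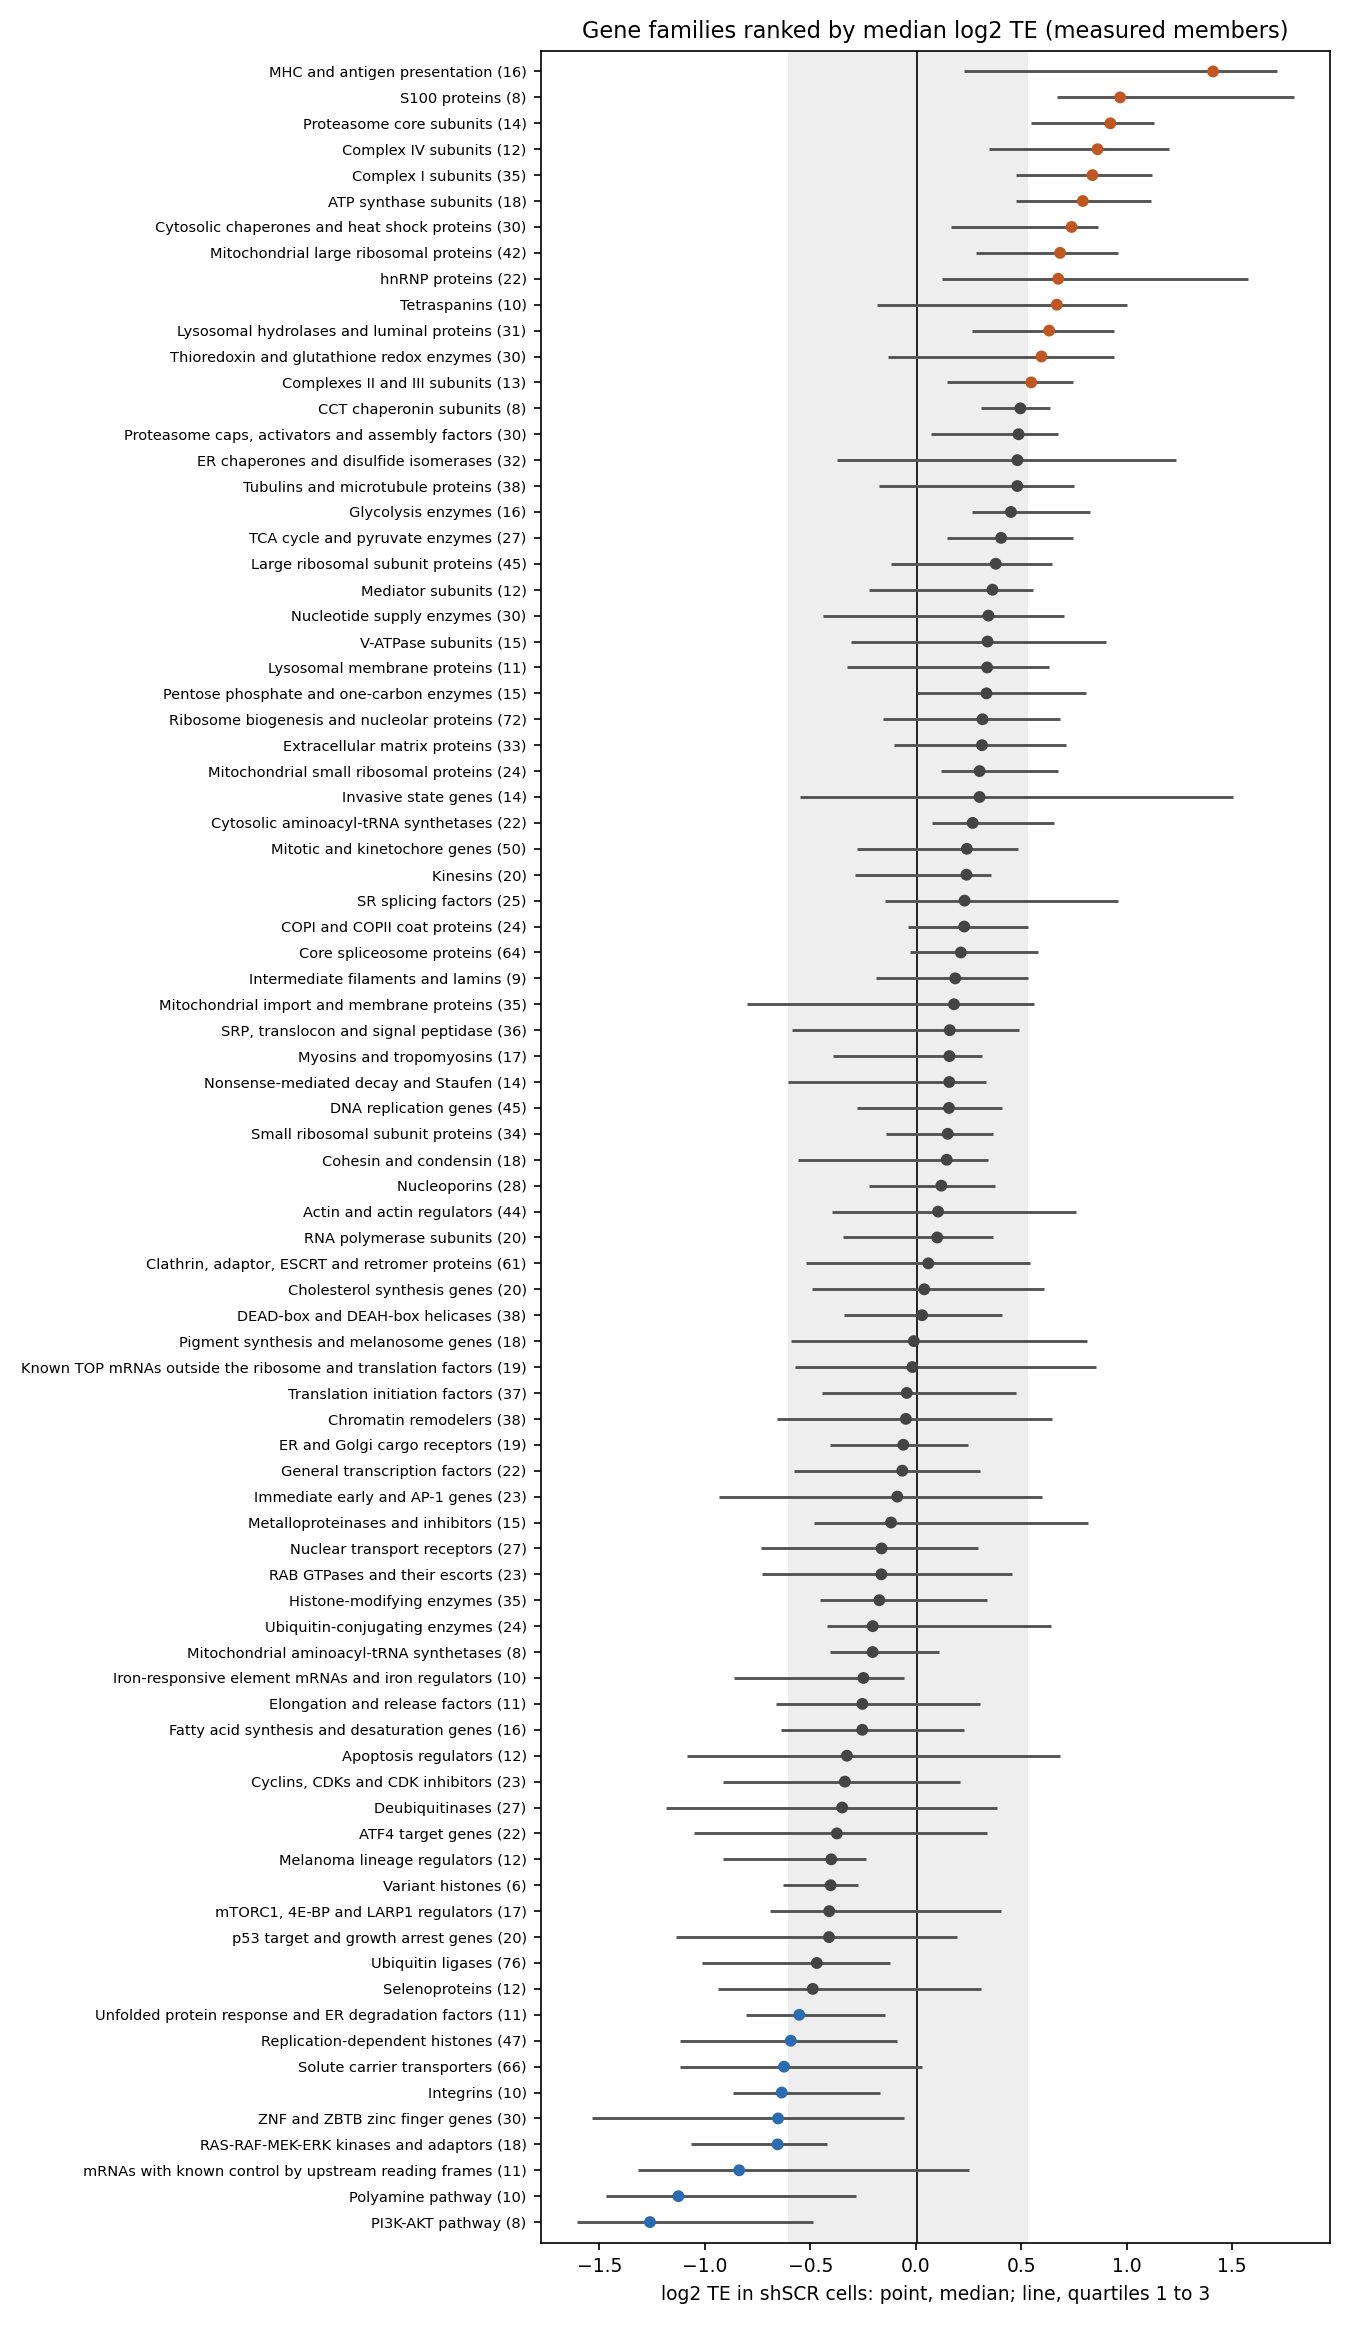
Median (point) and quartiles (line) of log2 TE in shSCR cells for 84 gene families, with the number of measured members in parentheses, the median of all genes as a vertical line and their quartiles as a grey band. The lists of melanoma signalling pathways, the polyamine pathway and transporters sit at the bottom. Antigen presentation, S100 proteins, the proteasome core and the respiratory chain sit at the top, and medians run from -1.26 to 1.41.

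mRNAs with known translational control differed by family. Of 11 measured mRNAs listed for known control by upstream reading frames, 5 were low and 0 high, with a median of -0.84. AZIN1 and AMD1 were not in this list and were counted with the polyamine pathway. Values in the list ranged widely. ATF4 and IBTK lay far below the others, then came PPP1R15A (-1.37), the phosphatase subunit that reverses eIF2 phosphorylation, the p53 ligase MDM2 (-1.26) and the replication checkpoint protein TOPBP1 (-1.04). The glutathione-degrading enzyme CHAC1 had -0.84 and the arginine transporter SLC7A1 -0.68. In contrast, EPRS (0.19), RAD23B (0.31), UCHL5 (0.75) and the transcription factor CEBPB (0.89) lay above 0.

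The targets of ATF4 were nearer to the middle, with a median of -0.37, 6 of 22 low and 0 high. The amino acid transporters SLC38A1 (-1.5) and SLC38A2 (-1.13), the tRNA export factor XPOT (-1.49), the pseudokinase TRIB3 (-1.30) and the mTORC1 inhibitors DDIT4 (-1.25) and SESN2 (-1.12) were the 6 low ones. At the upper end of the list were PHGDH (0.61) of serine synthesis, the glutamine transporter SLC1A5 (0.63) and CEBPB.

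The polyamine pathway had the second lowest median, -1.13, with 5 of 10 low and 2 high. Polyamines are small cations that cells make from ornithine, and several steps are controlled by translation. The low members were AZIN1, the polyamine transporter ATP13A3 (-2.37), AMD1 (-1.48), which makes the aminopropyl donor and has a short upstream reading frame, spermine synthase SMS (-1.42) and the antizyme OAZ1 (-1.27), whose mRNA needs a frameshift. ATP13A2 (-0.98), MTAP (-0.89) and DHPS (-0.08) followed. Spermidine synthase SRM (2.08) and EIF5A (1.51), the protein that carries the spermidine-derived residue hypusine, were high. SRM and SMS carry out successive steps, and their TE differed 11.4-fold.

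Among 10 mRNAs of iron regulators or with a reported iron-responsive element, 3 were low and 0 high (median -0.25). FTL was lowest, followed by the kinase CDC42BPA (-1.79) and the hypoxia factor EPAS1 (-1.0). The ferritin heavy chain FTH1, which also carries an iron-responsive element in its 5' leader, lay at -0.05, so the chains of one protein shell differed, FTL standing at 0.177 of the TE of FTH1. The mRNAs of both have named pseudogenes, 20 for FTL. The transferrin receptor TFRC (-0.43), whose elements lie in its 3' end, IREB2 (-0.28), NCOA4 (-0.22), PFN2 (0.03) and ACO1 (0.20) lay in the middle range.

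Selenoproteins, which decode a UGA codon as selenocysteine, had a median of -0.49, with 3 of 12 low and 1 high. SELENOT (-1.48), SELENOI (-1.46) and the thioredoxin reductase TXNRD1 (-1.19) were low, and SELENOF (-0.85), GPX1 (-0.81), SEPHS2 (-0.75) and SELENOH (-0.23) lay below 0. SELENOS (0.10), SELENON (0.27), SELENOK (0.44), TXNRD2 (0.99) and GPX4 (1.13) lay above 0. The paralogues diverged, TXNRD1 at 0.221 of the TE of the mitochondrial TXNRD2, and GPX1 at 0.260 of that of GPX4, which protects membranes from lipid peroxides.

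**Figure D3:**
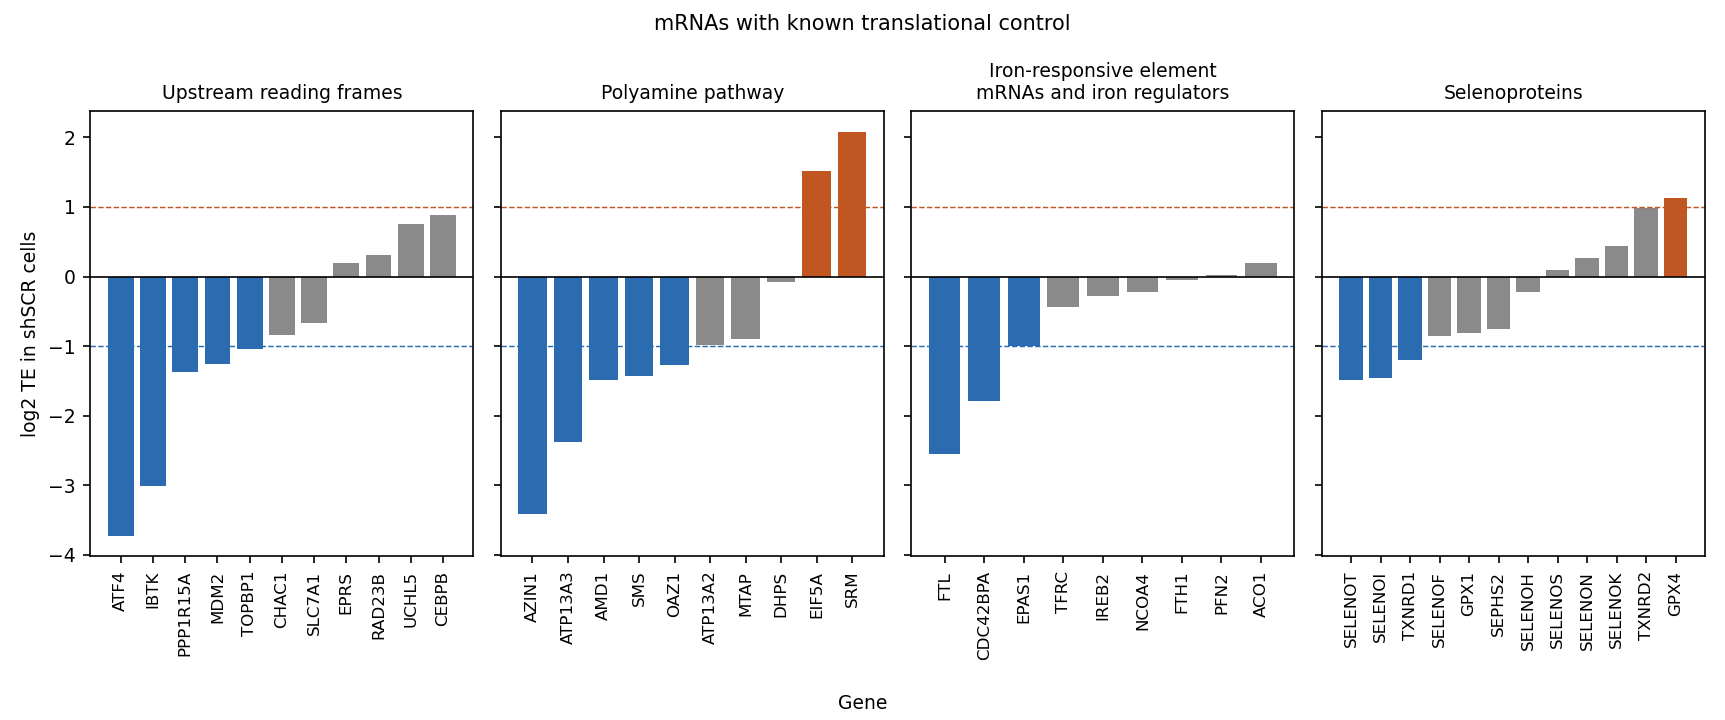
log2 TE in shSCR cells (y axis) of the measured members reported for 4 families of mRNAs with known translational control (x axis, genes in order of value), with bars at or below -1 in blue and at or above 1 in orange. ATF4 and AZIN1 reach below -3, and EIF5A, SRM and GPX4 stand above 1.

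The cytosolic ribosome lay near the typical mRNA. Its 79 measured proteins had a median of 0.26, 1 was low (1.27%) and 8 were high (10.1%). The small subunit (34 proteins, median 0.15) ran from RPS10 (-1.22) and RPSA (-0.95) to RPS28 (1.04), RPS26 (1.26) and RPS15 (1.54). The large subunit (45 proteins, median 0.38) ran from RPL7 (-0.98), RPL39 (-0.92) and the stalk protein RPLP0 (-0.77) to RPLP2 (1.63), RPL13A (2.45) and RPL28 (3.70). RPLP0 and RPLP2 form one stalk on the ribosome, yet they lay near opposite ends of their family. The interquartile range of the small subunit, 0.505, was the third narrowest of the 84 families, behind CCT chaperonin subunits (0.327) and variant histones (0.355). All but 3 of the 79 have named pseudogenes, so single values are uncertain.

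Ribosomal proteins with and without the pyrimidine run at the start overlapped in TE. It was found in 43 of the 65 ribosomal proteins with an entry in the table of start sites (66.2%), in 257 of all 3857 genes with an entry (6.66%) and in 4.07% of all entries. The run was defined as a C at the start base followed by at least 4 C or T, read on the transcribed strand. Ribosomal proteins with it had a median of 0.26 and those without it 0.38. Over all genes the medians were 0.15 with the run and 0.00 without, a difference of 0.15 on the log2 scale. Outside the ribosome and the translation factors, 204 genes with the run had a median of 0.14. By length of the run, medians were 0.09 for 5 to 7 bases (166 genes), 0.16 for 8 to 10 bases (55 genes) and 0.27 for 11 bases or more (36 genes). The last group held both LHFPL2 at -3.80 and ANP32B at 2.37.

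Known TOP mRNAs outside the ribosome and the translation factors had a median of -0.02, with 2 of 19 low and 4 high. Over the 6 members that no other family holds, it was -0.71. NACA (-1.18) and YBX1 (-0.79) stood at the low end and NCL (1.48), VIM (1.66) and HNRNPA1 at the high end.

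Initiation factors had a median of -0.04, with 4 of 37 low (10.8%) and 2 high (5.41%). The low ones were EIF5 (-2.29), which triggers GTP hydrolysis on eIF2 and is known to limit its own synthesis through start codon choice, EIF4B (-1.70), EIF1AX (-1.64) and the poly(A)-binding protein PABPC4 (-1.10). EIF1 (2.19), which guards start codon choice and is known for a like control, and EIF5B (2.11), which joins the subunits, were high. EIF5B and EIF5 were 21.1-fold apart. The 12 measured subunits of eIF3, the scaffold of the initiation complex, were all within the middle range, from EIF3L (-0.48) to EIF3K (0.83), with a median of 0.38. The 8 subunits of eIF2 and eIF2B ran from EIF2S3 (-0.91) to EIF2B4 (0.67), with a median of -0.09.

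Among 11 elongation and release factors (median -0.25), the release factor ETF1 (-1.30) and the rescue factor HBS1L (-1.07) were low, and its partner PELO had -0.70. EEF1A1 (-0.63), EEF1G (-0.43), EEF2 (-0.25) and EEF1B2 (-0.17) lay below 0. GSPT1 (0.25) and EEF1D (0.36) lay above 0, and EEF1A2 (1.12) and EIF5A were high. EEF1A1, the common form of the factor that brings tRNA, had 0.297 of the TE of its tissue-restricted paralogue EEF1A2.

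Cytosolic aminoacyl-tRNA synthetases (22 genes, median 0.27) ranged from IARS (-0.61), QARS (-0.22) and RARS (-0.14) to GARS (1.18), AIMP2 (1.31) and FARSB (1.36), with 0 low and 3 high. The 8 mitochondrial synthetases had a lower median, -0.20, with 0 low and 0 high, between EARS2 (-0.76) and TARS2 (0.46). Ribosome biogenesis factors (72 genes, median 0.32) had 0 low and 9 high members. BYSL (1.55), UTP4 (1.73) and NOP16 (1.79) led, and RRP7A (-0.98), RRP1B (-0.85) and IMP4 (-0.63) came last.

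Nuclear-encoded mitochondrial ribosomes and respiratory complexes had medians from 0.30 to 0.86. Their shares of high members differed, beside 9.66% of all genes. Mitochondrial ribosomal proteins of the large subunit (42 genes) had a median of 0.68, with 1 low and 10 high (23.8%). Those of the small subunit (24 genes) had 0.30, with 1 low and 3 high (12.5%). MRPL4 (1.48), MRPL2 (1.60) and MRPL22 (1.72) had the highest values, and MRPS16 (-1.56) and MRPL51 (-1.01) the low ones. The mitochondrial large subunit stood 1.24-fold above the cytosolic large subunit in median TE.

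The 78 measured genes listed for oxidative phosphorylation had a median of 0.79. The typical member thus had 1.73 times the TE of the scale's zero. The list takes in COX7A2L and cytochrome c, which are not core subunits. Of the 78 genes, 24 were high (30.8%) and 1, COX7A2L, was low (1.28%). Complex I, the NADH dehydrogenase, had a median of 0.84, with 13 of 35 high and 0 low. NDUFB2 (1.37), NDUFB1 (1.56) and NDUFA12 (1.63) led, and NDUFA11 (-0.63), NDUFA5 (-0.12) and NDUFA8 (0.17) closed the list. Of the NDUFB subunits, which sit in the membrane arm, 8 of 11 were high (median 1.11), of the NDUFA subunits 2 of 13 (median 0.77), and of the NDUFS and NDUFV subunits 3 of 11 (median 0.84). These subgroups were formed after values were seen.

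Complex IV (12 genes, median 0.86) held 5 high members, COX5B and COX6C (both 1.05), COX4I1 (1.63), COX6B1 (1.66) and COX5A (2.19). COX7A2L (-1.54), which helps to assemble supercomplexes and is no core subunit, was the low one, and cytochrome c (CYCS) had -0.26. ATP synthase (18 genes, median 0.79) had 5 high and 0 low members, with ATP5F1D (1.80), ATP5F1E and ATP5PF on top and ATP5PB (-0.15) as its lowest. Complexes II and III (13 genes) had a median of 0.55, from UQCRH (-0.45) to SDHC (2.02), with 1 high (7.69%).

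The list of mitochondrial import and membrane proteins did not share these values. The 35 import and membrane proteins had a median of 0.18, with 7 low and 3 high. Among the receptors of the outer membrane, TOMM22 had -1.81, TOMM70 -1.72 and TOMM20 -1.24. MTX3 (-1.64) was also low. The remaining low members are not import factors, namely the complex I assembly factor TIMMDC1 (-1.66), the inner membrane protein CHCHD3 (-1.39) and the fusion GTPase OPA1 (-1.12). The peptidase PMPCA (1.04), MTX1 (1.16) and the chaperonin partner HSPE1 (1.67) were high.

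Metabolic enzymes of the core pathways lay slightly above the middle. Glycolysis (16 genes, median 0.45) had 15 members above 0, 0 low and 1 high, from PFKFB3 (-0.05), TPI1 (0.07) and PFKL (0.12) to PGK1 (0.97), LDHB (0.98) and ALDOA (1.17). The TCA cycle and pyruvate enzymes (27 genes, median 0.40) ran from GLUD1 (-0.94) to IDH3G (1.52) and MDH2 (1.55), with 0 low and 3 high. Nucleotide supply (30 genes, median 0.34) was wide, from RRM2B (-1.98) to ATIC (1.91) and TYMS.

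Cholesterol synthesis (20 genes) had a median of 0.04, with 4 low and 0 high. The sterol carrier STARD4 (-1.54), CYP51A1 (-1.17) and the sterol sensor partner INSIG1 (-1.12) were among the low ones, and FDPS (0.79), ACAT2 (0.85) and FDFT1 (0.93) highest. In fatty acid synthesis (16 genes, median -0.25) the desaturase FADS1 (-1.45) and the synthase FASN (1.51) stood at opposite ends. Redox enzymes (30 genes, median 0.60) placed PRDX4 (1.44), GLRX2 (1.16) and TXN (1.13) on top, while cytosolic SOD1 (0.58) had 3.66 times the TE of mitochondrial SOD2 (-1.29).

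**Figure D4:**
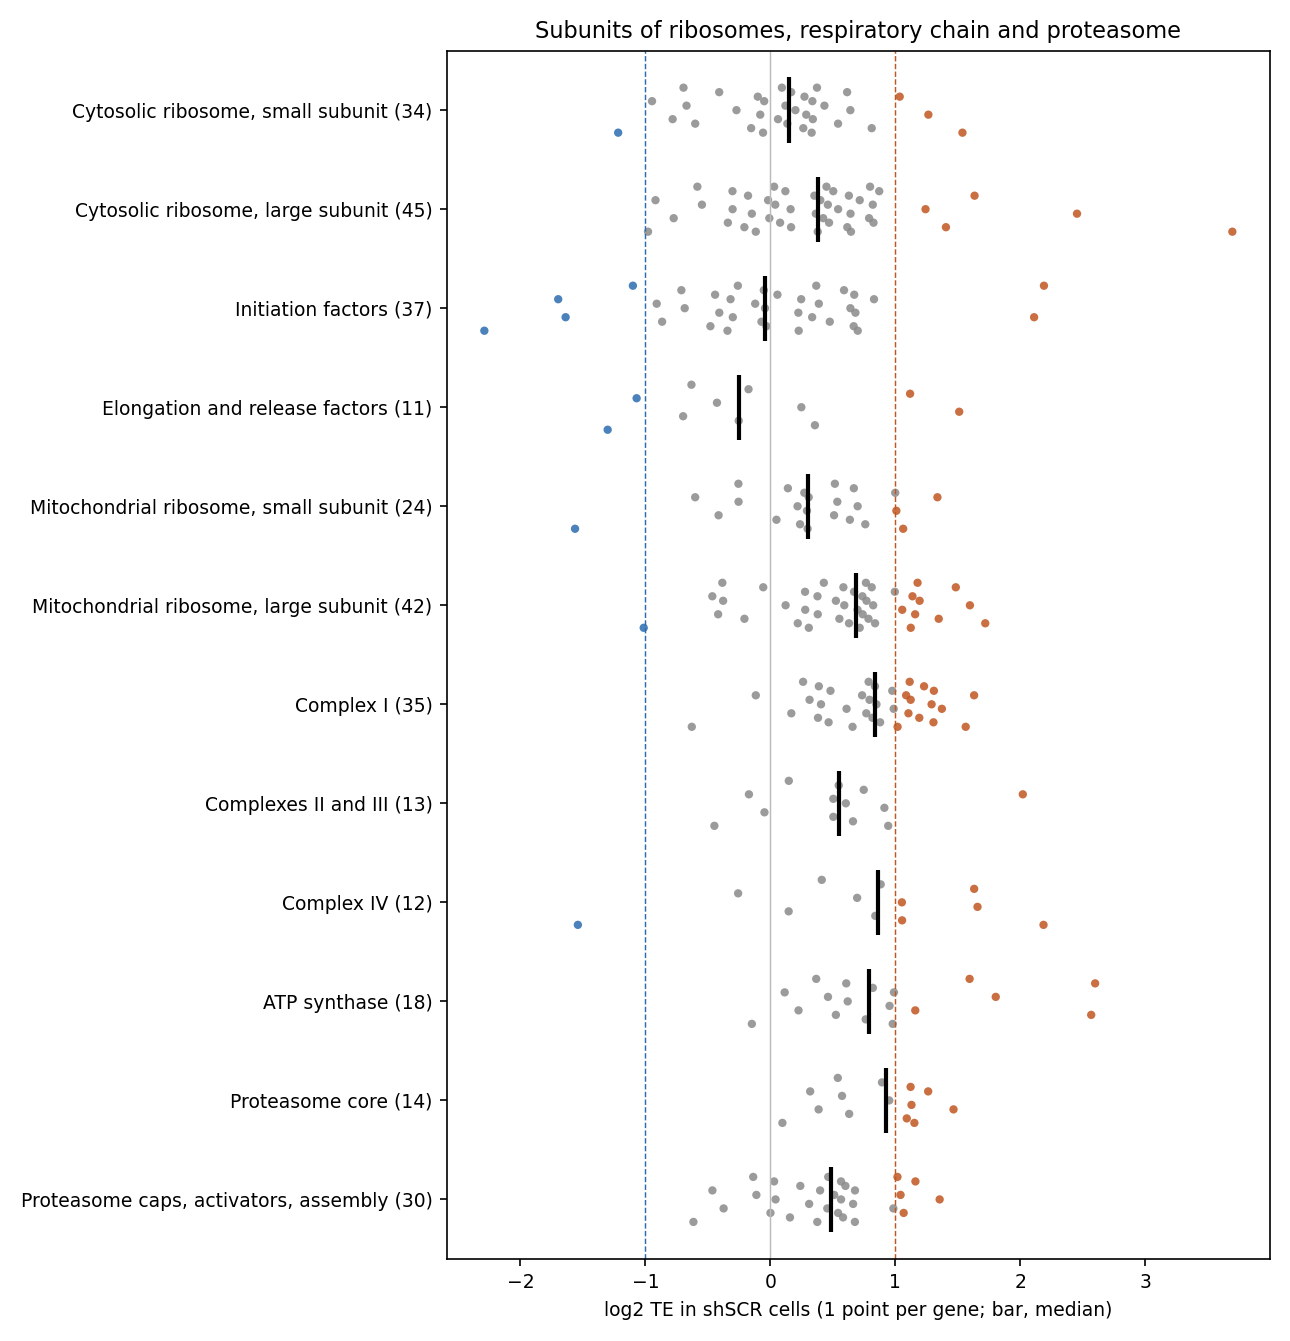
log2 TE in shSCR cells (x axis) of every measured member of 12 groups (y axis, number of genes in parentheses), 1 point for each gene. A black bar marks the median, and dashed lines lie at -1 and 1. Complex I, complex IV, ATP synthase and the proteasome core have medians from 0.79 to 0.92, while initiation and elongation factors have medians below 0.

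Protein degradation split by step. The 14 subunits of the proteasome core, which cuts proteins, all lay above 0, from PSMA4 (0.10), PSMA1 (0.32) and PSMB2 (0.39) to PSMB3 (1.15), PSMA3 (1.26) and PSMB7 (1.47), with 0 low and 6 high. Caps, activators and assembly factors (30 genes, median 0.49) had 0 low and 5 high members, among them PSMC5 (1.07), PSME2 (1.16) and PSME1 (1.36), with PSME3 (-0.62) the lowest. In contrast, ubiquitin ligases, which choose the substrates, had a median of -0.47, with 20 of 76 low (26.3%) and 1 high. TRIM2 (-2.29), CUL5 (-2.28) and RNF145 (-1.95) were lowest, and STUB1, which works with heat shock proteins, was the high one (1.84). Deubiquitinases (27 genes, median -0.35) had 8 low and 2 high members, from USP53 (-2.23), USP22 (-1.73) and OTUD7B (-1.72) to USP14 (1.42), which sits on the proteasome, and USP4 (1.46). Conjugating enzymes (24 genes, median -0.20) had 2 low and 3 high, with UBE2H (-2.09) and the activating enzyme UBA1 (1.48) at the ends.

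Chaperones stood above the middle. The 30 cytosolic chaperones had a median of 0.74, with 1 low (DNAJB6, -1.02) and 7 high, among them BAG3 (1.67), PFDN2 (2.02) and HSPB1. CCT chaperonin subunits, which form 1 ring complex, had the narrowest range of all families, from TCP1 (-0.24) to CCT8 (0.72), with a median of 0.50. ER chaperones and disulfide isomerases (32 genes, median 0.48) held 11 high and 5 low members. PDIA3 (1.58), ERP29 (1.60), PPIB (2.08), HSPA5 (1.38) and TXNDC5 were high, while the J proteins DNAJC10 (-2.03) and DNAJC3 (-1.19) and the oxidases ERO1A (-1.16) and ERO1B (-1.17) were low with FKBP14 (-1.45).

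Regulators of the unfolded protein response and of ER degradation had a median of -0.55, with 2 of 11 low and 0 high, and 9 below 0. EDEM1 (-2.54), which sorts misfolded glycoproteins for degradation, was the lowest. XBP1 (-0.95), SEL1L (-0.66), CREB3L2 (-0.63), ATF6 (-0.55), DERL1 (-0.27), HERPUD1 (-0.16) and DERL2 (-0.14) lay below 0, and MBTPS2 (0.02) and SELENOS just above. The median of the chaperones was 2.05-fold above that of these regulators.

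Families of the secretory and membrane system differed widely. Lysosomal hydrolases and luminal proteins (31 genes, median 0.63) had 7 high members, led by GUSB (2.32), TPP1 (2.08) and CTSA (1.94), and 1 low member. Lysosomal membrane proteins (11 genes, median 0.34) had 0 low and 0 high, between SCARB2 (-0.46) and CD63 (0.85). V-ATPase subunits (15 genes, median 0.34) ran from ATP6V0E1 (-1.04) and ATP6V1D (-0.99) to ATP6AP1 (1.74), ATP6V1F (1.76) and ATP6V0C.

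Solute carriers had a median of -0.62, with 18 of 66 low and 3 high. SLC35F5, SLC35F2 (-2.33) and the choline transporter SLC44A1 (-2.31) were lowest, and the nucleoside transporter SLC29A1 (1.07), SLC22A18 (1.11) and the mitochondrial ADP/ATP carrier SLC25A5 (1.41) highest. The 11 measured SLC25 carriers of the inner mitochondrial membrane had a median of 0.18, while 8 zinc transporters of the SLC30 and SLC39 families had -0.88. Tetraspanins (10 genes, median 0.67) had 3 high members, CD151 (1.02), CD9 (1.11) and CD81 (1.95), and CD82 had 0.95. TSPAN3 and TSPAN6 (both -0.33), TSPAN14 (-0.29), TSPAN4 (0.14) and TSPAN13 (0.49) lay lower.

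Integrins, the matrix receptors, had a median of -0.64 with 2 of 10 low, whereas extracellular matrix proteins had one of 0.31 with 1 of 33 low. ITGB8 (-2.40) and ITGB5 (-1.46) were the low integrins. ITGB3 (-0.87), ITGAV (-0.85), ITGA4 (-0.64), ITGA6 (-0.63), ITGA5 (-0.24) and ITGA1 (-0.15) lay below 0, and ITGB1, the shared beta chain, had 0.15. Among matrix genes the membrane-bound syndecans SDC2 (-1.07), SDC3 (-0.99) and SDC4 (-0.90) were lowest, and LGALS3BP (1.0), LGALS1 (1.02) and the crosslinking enzyme LOXL2 (1.18) highest.

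In the list of metalloproteinases, inhibitors and related genes (15 genes, median -0.12) MMP16 (-1.49) and ADAM9 (-1.26) were low. The 3 high members, SERPINE2 (1.11), BSG (1.57) and TIMP1, are not metalloproteinases. TIMP3 (-0.69) had a TE 11-fold below that of TIMP1.

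Antigen presentation had the highest family median, 1.41, with 9 of 16 high and 0 low. CIITA and 4 class II chains were added to this family after their values were seen. Without them the median was 0.90 over 11 genes, below the S100 proteins (0.97) and the proteasome core (0.92), so the first rank rests on the added genes. Class II chains that present peptides to helper T cells were HLA-DRA (1.30), HLA-DPA1 (1.52), HLA-DPB1 (1.54), HLA-DRB1 (1.70), HLA-DRB5 (1.75) and HLA-DQB1 (1.86). HLA-DMA (1.87) and the invariant chain CD74 (2.36), which do not present peptides themselves, were counted with them. All 8 were high. Their transcriptional activator CIITA lay at -0.37. Among class I genes HLA-B had 1.56, HLA-C 0.90, B2M 0.08 and HLA-E -0.24, and TAP2 (0.14) and ERAP1 (0.26) lay in the middle. HLA genes are closely related and vary between genomes, so how reads were divided among them is uncertain.

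S100 proteins followed with a median of 0.97, 4 of 8 high and 0 low. S100A1 (1.62), S100A10 (2.31) and S100A11 were high with S100A13 (1.0), and S100A4 (0.94) and S100A6 (0.91) lay just below. The melanoma marker S100B (-0.05) and S100A16 (-0.08) did not share these values.

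RNA-binding proteins differed by class. hnRNP proteins, which package nascent RNA, had a median of 0.68, with 10 of 22 high and 0 low. PCBP2 (2.16), HNRNPD (2.64) and HNRNPA1 led, while HNRNPC (-0.74) and HNRNPF (-0.57) lay lowest. Core spliceosome proteins (64 genes, median 0.21) had 0 low and 6 high, from SNRNP25 and LSM5 (both -0.75) to SF3A1 (1.39), SNRPA1 (1.42) and XAB2 (1.49). SR splicing factors (25 genes, median 0.23) placed SRSF8 (-1.03), SRSF1 (-0.61) and SRSF3 (-0.56) at the bottom and SRSF9 (1.45), SRRM1 (2.1) and SRRM2 (2.17) on top. In the decay pathway of nonsense mRNAs (14 genes, median 0.16) SMG5 (-2.71) and SMG1 (-1.61) were low, and the helicase UPF1 had 0.51. Nuclear transport receptors (27 genes, median -0.16) had 5 low members, XPO4 (-1.53), XPOT, XPO6 (-1.47), RANBP1 (-1.35) and TNPO3 (-1.28), and 1 high member, NXF1 (1.27).

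Replication-dependent histones had a median of -0.59, with 14 of 47 low and 2 high. Their mRNAs end in a stem-loop and lack a poly(A) tail. The mRNA libraries are titled as total RNA but labelled as poly(A) RNA, which would change the denominator of TE for these genes, and the part of this in their values was not tested. The types differed among themselves. All 5 linker histones of type H1 lay between -1.39 (HIST1H1E) and -0.73 (HIST1H1C), with 4 low, and 8 of 13 H2B genes were low (median -1.12), HIST1H2BD (-1.72) first. H2A genes had a median of -0.66, and H3 genes one of -0.54. H4 genes differed, with a median of 0.25, 0 of 9 low and 7 above 0. HIST1H2AD (1.94) and HIST1H4E (1.02) were the high ones. Coding sequences within a type are near-identical, so reads may be shared among its genes. The 6 variant histones, whose mRNAs have tails, had a median of -0.40. H3F3B (-1.29) was low, H2AFV had -0.68, H2AFY -0.46, H1F0 -0.34 and H2AFX -0.25, and H2AFZ (0.20) alone lay above 0.

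**Figure D5:**
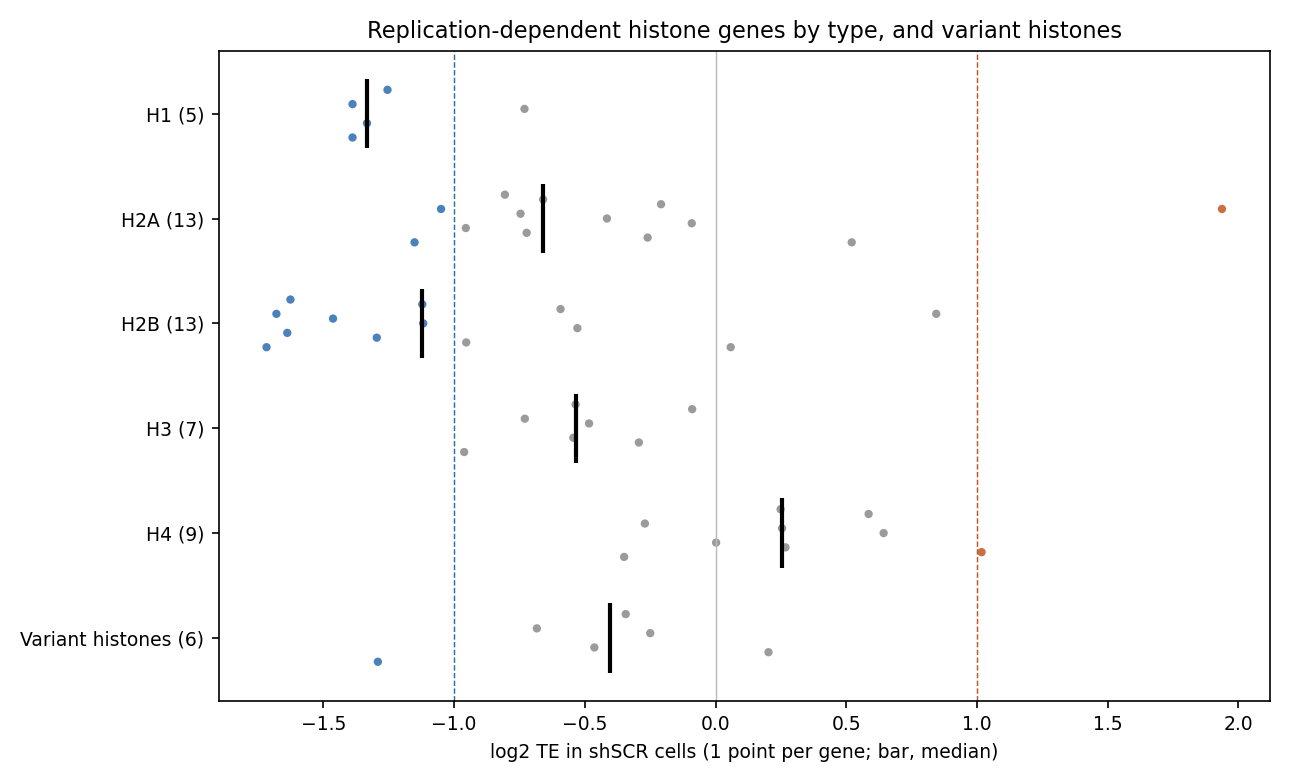
log2 TE in shSCR cells (x axis) of 47 replication-dependent histone genes by type and of 6 variant histones (y axis, number of genes in parentheses), with a black bar at the median and dashed lines at -1 and 1. All H1 points lie below -0.5 and 7 of 9 H4 points above 0.

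Zinc finger genes of the ZNF and ZBTB type had a median of -0.65, with 12 of 30 low and 1 high. ZNF106, ZNF451 (-1.84) and ZKSCAN1 (-1.80) were lowest, and ZNF706 (0.72), ZNF326 (0.80) and ZNF593 (1.15), a factor of ribosome assembly, highest. Histone-modifying enzymes (35 genes, median -0.17) ran from NSD1 (-1.72), KMT2C (-1.70) and KDM5A (-1.11) to HDAC2 (1.27). General transcription factors (22 genes, median -0.06) had 3 low members, GTF2H1 (-2.12), GTF2A1 (-2.08) and TAF2 (-1.29), and 0 high. Chromatin remodelers (38 genes, median -0.05) placed CHD2 (-1.40), GATAD2A (-1.16) and CHD9 (-1.13) low and SMARCB1 (1.28) high.

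DNA replication (45 genes, median 0.16) and mitosis (50 genes, median 0.24) were near the middle, each with 1 low member, POLE3 (-1.27) and survivin BIRC5 (-1.83). TOP1 (1.98) and CDT1 (1.19) led replication, and CDC20 (1.44), TACC3 (1.4) and SPC25 (1.34) led mitosis. Cyclins and their kinases (23 genes, median -0.34) had 5 low members, CDK6 (-2.53), CCNT1 (-1.78), CCND1 (-1.18), CCNG1 (-1.11) and CDK13 (-1.11), and 1 high, CDK9 (1.20). CDK4, the partner of cyclin D beside CDK6, had -0.91, and CCND1 stood at 0.286 of the TE of CCND3.

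The lists of signalling pathways known to drive melanoma growth, whose members are not all kinases or activators, had medians below -0.5. In the RAS-RAF-MEK-ERK pathway, which BRAFV600E keeps active, 5 of 18 members were low and 0 high, with a median of -0.66. PTPN11 (-1.77), MKNK2 (-1.47), SHC1 (-1.29) and RPS6KA3 (-1.09) were among the low ones. MAP2K1 (-0.90) stood below MAP2K2 (0.09), and the 14-3-3 protein YWHAQ (0.49) was highest. The 14-3-3 proteins of the list (6 genes) had a median of -0.22, with 0 low. The PI3K-AKT list had the lowest median of all families, -1.26, with 5 of 8 low. It mixes activators with phosphatases that act against the pathway and lipid kinases of other branches. Its rank is therefore not that of the activators alone. The phosphatases INPP4B (-1.83) and INPPL1 (-1.09) and the lipid kinase PIK3C2A (-1.43) were low beside AKT1. PIK3R4 (-0.53), IRS2 (-0.36) and PIK3C3 (0.35) lay in the middle. Regulators of mTORC1 and its translational targets (17 genes, median -0.41) ran from MKNK2, DDIT4 and SESN2 to PDCD4 (0.85), LAMTOR5 (1.09) and RRAGA (1.17), with RPTOR at -0.80 and MTOR at -0.41. RPTOR and MTOR were named after their values were seen. Over the 11 mTORC1 regulators that no other family holds, the median was 0.30.

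Lineage regulators of melanoma (12 genes) had a median of -0.40, with 2 low, 1 high and 10 below 0. TBX3 and ETV5 (both -1.03) were low, ERBB3 had -0.97, ETV1 -0.90, IRF4 -0.72, SNAI2 -0.32, EDNRB -0.26, TBX2 -0.24, ZEB2 -0.21 and TFAP2C 0.03. SOX10 (1.23), the neural crest factor that switches on MITF, was the high one, and MITF itself lay at -0.48, at 0.306 of the TE of SOX10. Pigment genes (18 genes, median -0.01) had 3 low and 3 high members. The trafficking genes LYST (-1.85), HPS5 (-1.59) and RAB27A (-1.07) were low, and GPNMB and PMEL (both 1.36), a structural protein of the melanosome, and BLOC1S1 (2.03) were high.

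Genes of the invasive state (14 genes, median 0.30) were the most spread of all families, with an interquartile range of 2.05. Over the 8 members that no other family holds, the median was -0.49. TEAD1, YAP1 (-1.39), CAV1 (-0.82), WWTR1 (-0.61) and NT5E (-0.37) lay below 0, and among them YAP1 and WWTR1 are coactivators that bind TEAD1. NGFR (0.10), CDH2 (0.29), TNC (0.31) and FN1 (0.62) lay in the middle. CTGF (1.51) and CYR61 (1.63), known targets of these coactivators, were high with CD44 (1.48), VIM (1.66) and FOSL1 (2.13).

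Stress and survival genes were split. In the p53 response (20 genes, median -0.41) 7 were low and 2 high, with PHLDA3 (-2.29), RRM2B and the death receptor TNFRSF10B (-1.46) lowest and TIGAR (0.83), BAX (1.21) and GDF15 (1.67) highest. Among 12 apoptosis regulators (median -0.33) 5 were low, the inhibitors BIRC5, XIAP (-1.81), BIRC6 (-1.10) and MCL1 (-1.03) and also BCL2L13 (-1.08). Over the 6 members that no other family holds, the median was 0.43. The promoters of death DIABLO (1.07), AIFM1 (1.12) and BAX were high, and BNIP3 (-0.40), CASP2 (0.29) and CASP4 (0.56) lay between. Immediate early genes (23 genes, median -0.09) ran from DUSP4 (-1.74), a phosphatase of MAP kinases, PHLDA1 (-1.5) and SPRY4 (-1.45), an inhibitor of receptor signalling, to CTGF, CYR61 and FOSL1.

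Actin and its regulators (44 genes, median 0.11) had 4 low and 8 high members. ENAH (-1.48), ARPC4 (-1.10) and CFL2 (-1.09) were lowest, and CAPZB (1.83), PFN1 and ZYX highest. Of the paralogue pairs, which were chosen after values were seen, some were close. IDH2 had 1.18 times the TE of IDH1, and HSP90AA1 had 0.843 of the TE of HSP90AB1. Actin regulators held pairs that stood apart. CFL1 (1.5), the cofilin of non-muscle cells, had 6.03 times the TE of CFL2, and PFN1 5.12 times that of PFN2. ZYX and ENAH, which meet at focal adhesions, were 16.1-fold apart. Tubulins and microtubule proteins (38 genes, median 0.48) ran from DYNLT3 (-1.29) to DCTN3 (1.77) and TUBG1 (2.03).

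The GC share of the first 50 transcribed bases did not order TE across genes, with a Spearman rho of -0.03 over 3857 genes, which share libraries and are not replicates. Medians were -0.19 below 50% GC (182 genes), 0.11 from 60% to 70% (1469 genes) and -0.21 at 80% or more (355 genes). The bins at both ends had the lowest medians, with 20.3% and 19.2% of their genes low. In the 3 bins between them, 14.6% (50% to 60%), 10.6% (60% to 70%) and 14.3% (70% to 80%) were low.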

How the data were processed

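Footprint and mRNA libraries of shSCR and shTINCR cells were made by the authors, and their deposited table gives log2 TE for each condition as a log2 value, per the file headers. Only the shSCR column was used, and 8 other columns were left out. The submitters' processing notes name, without roles, hg19, TopHat2 2.0.8 with Bowtie2 2.1.0, CASAVA 1.9, DESeq 1.10.1, HTSeq 0.5.3p9 and SAMtools 0.1.18. Which tool computed TE, how reads were trimmed, whether ribosomal RNA reads were removed, how reads with several matches were used and which low values were dropped is not stated in the sources used here. Cycloheximide can pile up footprints near start codons.

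Counts at log2 TE of at most -1 or at least 1, medians and quartiles were computed with Python 3.11.15, pandas 2.3.3, numpy 2.4.6 and scipy 1.17.1, and figures with matplotlib 3.10.9. Summaries and the start-site search were checked on simulated data. No test was run, because the column holds 1 value for each gene. Symbols were matched to RefSeq names (4465 current, 139 older, 12 unmatched) and are printed as deposited, and 3857 genes had an entry of start-site sequence, the first listed being used. Pseudogenes were counted by name. Members, families and subgroups were chosen with earlier results of these data known, and subgroups and paralogue pairs after values were seen. Named genes are the 25 lowest and 25 highest, the 3 lowest and 3 highest members of each family, and all members of families with 15 or fewer measured members or with known translational control. Other members named from larger families were chosen after their values were seen. Protein length was to be compared with TE but was not analysed here. Some genes covered by the naming rule are not reported here.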

Additional observations from a re-analysis of the deposited data

How the results depend on the processing

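With a threshold of 1.5 in size, 265 genes were low and 156 high. Counting from the median of all genes or leaving out genes with a named pseudogene kept both counts within 1.5 times. Using means left the medians of all 84 families within 1.5-fold, and the order of families by mean and by median had a Spearman rho of 0.96. The same held without members that have a named pseudogene (80 families with enough members) and without members that hold a small RNA gene (84 families). With only the members that no other family holds, 80 of 84 medians stayed within 1.5-fold. The others were mTORC1 regulators (from -0.41 to 0.30), apoptosis regulators (from -0.33 to 0.43) and invasive state genes (from 0.30 to -0.49), which changed sign. Known TOP mRNAs moved from -0.02 to -0.71. The difference of 0.15 between genes with and without the start run was 0.04 with a run within 2 bases of the start and 0.07 with any listed start, an alternative chosen after seeing the data. No paired analysis was possible because the column merges the replicates, and for the same reason no library could be left out. The planned comparison with protein length was not run, and pseudocounts do not apply to values deposited as log2.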

Other observations

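Some further gene groups, formed after values were seen, are given as values. Glycosyltransferases of the Golgi, which build sugar chains on proteins and lipids, had a median of -1.14, with 7 of 13 low and 0 high, from ST6GAL1 (-2.71), MGAT5 (-2.25) and B4GALT5 (-1.82) to GALNT7 (0.07). Of 36 genes named only as transmembrane proteins (TMEM), 9 were low and 2 high, with TMEM33 (-2.95) and TMEM214 (2.26) at the ends and a median of -0.31. Disulfide isomerases of the ER had a median of 1.35, with 6 of 8 high.

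Autophagy genes had a median of -0.06 over 11 members. BECN1, which starts the formation of autophagosomes, had -1.71. The ubiquitin-like proteins GABARAP (1.38) and GABARAPL2 (1.30) were high, while their relative MAP1LC3B lay at -0.67.

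Pairs of partner proteins, chosen after values were seen, were unlike in some cases and close in others. SLC7A5, the light chain of an amino acid exchanger, had 0.473 of the TE of its heavy chain SLC3A2. S100A10 had 3.91 times the TE of ANXA2, with which it forms a tetramer. The ribonucleotide reductase subunits RRM1 and RRM2 (1.25-fold) and the import receptors KPNA2 and KPNB1 (1.43-fold) were closer. Among related genes, the chaperones HSPA8 and HSPA4 (1.03-fold) and the one-carbon enzymes SHMT2 and SHMT1 (1.02-fold) were close. No error is known for these ratios.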
